A study of Saccharomyces cerevisiae with 50 samples.

Results

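The genes described here are 44 genes of amino acid synthesis in budding yeast (Saccharomyces cerevisiae) that are known targets of the transcription activator Gcn4. They were chosen by symbol from what is known of the pathway, but with earlier results of these data already known, so their counts are not those of a list chosen blind to the data. They make up 44 of the 6679 open reading frames listed in the data. They fall into 8 groups, with 5 genes for arginine, 5 for histidine, 8 for tryptophan and the shared aromatic pathway, 6 for lysine, 10 for the branched amino acids, 3 for serine, 2 for asparagine and 5 for threonine. Values above 0 were found for 43 of them. The exception was HIS3, a histidine gene that was listed at 0 in all 50 libraries. LYS1 carried no symbol in the data and was matched by its locus tag. For each of the 43 genes, mRNA and ribosome footprints (the mRNA fragments that ribosomes shield from nuclease) were compared across strains short of single ribosomal proteins.

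The study sequenced both kinds of library from SK1 cells, a fast-sporulating laboratory background, grown in rich glucose medium at 30 °C and collected during exponential growth. Its stated aim was to find expression changes tied to the overall amount of translation, with shortages of the 40S and the 60S subunit set side by side. The 9 RPS strains carried deletions in genes of 40S proteins. They were rps0b, rps25b, rps28a, rps28b, rps29b, 2 strains labelled rps22a (numbers 4659 and 4662v), the double deletion rps25a rps25b and the double heterozygote rps22a/+ rps22b/+. The 14 RPL strains carried deletions in genes of 60S proteins. They were rpl7a, rpl24a, rpl24b, rpl26a, rpl26b, rpl38, rpl40a, rpl40b, rpl41a, rpl41b, the double deletion rpl26a rpl26b and the double heterozygotes rpl7a/+ rpl7b/+, rpl26a/+ rpl26b/+ and rpl40a/+ rpl40b/+. The reference was wild type, with 2 samples of strain number 4484 (WT1 and WT2), and nothing in the labels says whether they were separate cultures. Every strain had 1 mRNA and 1 footprint library, so a level in a single strain has no replicate check, and p-values measure the spread between strains, some of which share a deleted gene.

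Gcn4 is the central activator of amino acid synthesis in yeast, in a response called general amino acid control. The GCN4 transcript carries short upstream reading frames that keep most ribosomes from its coding sequence in well-fed cells. When amino acids run short, the kinase Gcn2 phosphorylates initiation factor eIF2, more ribosomes pass the upstream frames, and Gcn4 protein accumulates and binds the promoters of its targets. Some targets also answer to regulators of their own pathway, such as the arginine repressor complex at ARG1 and ARG3 and the activator Lys14 at the lysine genes.

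The mRNA libraries held 0.962 to 3.506 M assigned reads, and the median library had 1.241 M in RPS strains, 2.0 M in RPL strains and 1.449 M in wild type. Footprint libraries held 4.102 to 8.572 M reads. Levels are given as RPKM, reads scaled to the coding length of the gene and to the size of the library. In its thinnest mRNA library a gene of the 43 had between 29 and 1785 reads, and in its thinnest footprint library between 36 and 11741. In 3 strains a gene named in the label stood near its usual level in 1 or both libraries. The footprint library labelled rpl26a/+ rpl26b/+ (4654v) held RPL26A at 100.8% and RPL26B at 100.9% of the median of the other strains. The mRNA library of that label held them at 53.3% and 51.2%. In the footprint library RPS0A was at 1.00% and RPS22B at 12.8%. Over all genes tested, the deviations of the 2 libraries of that label correlated at 0.04, whereas the other strains gave 0.293 to 0.837. In the strain labelled rps22a (4662v), RPS22A mRNA was at 94.5% and RPS22B mRNA at 22.8%. In rpl40a/+ rpl40b/+, RPL40A mRNA was at 96.9% and RPL40B mRNA at 55.3%. These libraries stayed in the class their labels give. The summed mRNA level of 8 haploid mating genes was 6.86 to 33.3 RPKM in RPS strains, 8.29 to 39.1 in RPL strains and 11.5 to 41.0 in wild type, and that of 6 early meiotic genes was 10.9 to 25.5, 15.5 to 22.7 and 16.6 to 18.0.

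The amino acid genes were high in the same few strains of both classes. The level of a strain was summarised as the median over the 43 genes of log2(RPKM + 1) minus the gene's own median over the 25 strains. In mRNA this was highest in rps25a rps25b (0.93), followed by rpl41a (0.80), rpl41b (0.73), the strain labelled rps22a (4662v) (0.72), rps25b (0.54), rpl26a/+ rpl26b/+ (0.51), rpl26a (0.47) and rpl40a/+ rpl40b/+ (0.30). All 43 genes lay above their own median in the first 4 of these strains. The lowest strains were rps0b (-0.29), rps22a/+ rps22b/+ (-0.34) and rpl7a (-0.37). WT2 stood at 0.16 and WT1 at 0. Neighbours in this order differed by less than the gap between the wild-type samples, except rps22a (4662v) and rps25b, and rpl26a and rpl40a/+ rpl40b/+.

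Footprints gave nearly the same order, led by rps25a rps25b (1.07), rpl41a (0.75), rpl41b (0.66), rps22a (4662v) (0.58), rps25b (0.55) and rpl26a (0.49). They ended with rpl40a (-0.33), rps22a/+ rps22b/+ (-0.37) and rpl7a (-0.40). The strain labelled rpl26a/+ rpl26b/+ stood apart, at -0.14 in footprints against 0.51 in mRNA. The rps25a rps25b strain had the highest mRNA level of 34 of the 43 genes and the highest footprint level of 36, and 32 genes were highest there in both assays. The lowest mRNA level was in rps22a/+ rps22b/+ for 12 genes, in rpl7a for 12 and in rps0b for 7. The same counts over all genes tested are not given. These counts therefore do not show that the strains were extreme for the amino acid genes in particular.

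**Figure D1:**
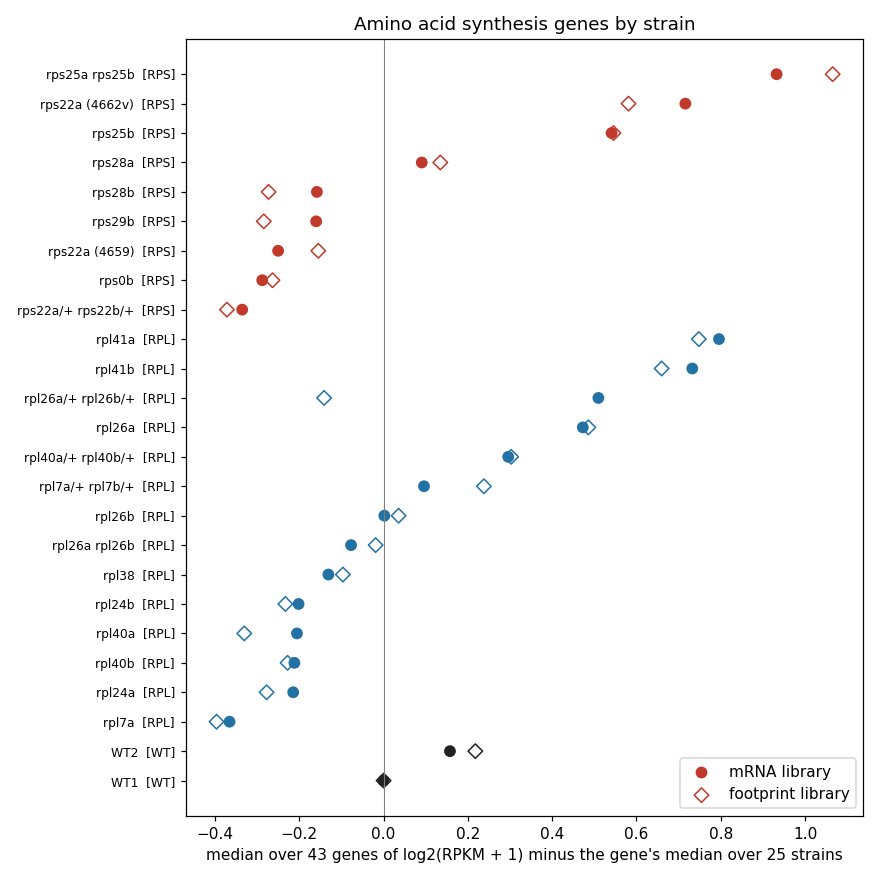
Level of the amino acid genes in each of 25 strains, as the median over 43 genes of log2(RPKM + 1) minus the gene's median over all strains (x axis); filled symbols are mRNA and open diamonds are footprints, with RPS strains at the top, then RPL strains, then wild type. The mRNA values run from -0.37 in rpl7a to 0.93 in rps25a rps25b, and the symbols of rpl26a/+ rpl26b/+ lie far apart (0.51 in mRNA, -0.14 in footprints).

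Strains whose labels name the same gene or paralogous genes did not always share a level. Both rps25b and rps25a rps25b were high, as were rpl41a and rpl41b. Of the RPL26 strains, the mRNA median was 0.51 in rpl26a/+ rpl26b/+, 0.47 in rpl26a, 0.00 in rpl26b and -0.08 in rpl26a rpl26b. The RPL7 strains stood at -0.37 (rpl7a) and 0.10 (rpl7a/+ rpl7b/+). The 2 strains labelled rps22a stood at 0.72 (4662v) and -0.25 (4659). In 4662v, however, RPS22A mRNA was near its usual level (94.5% of the median of the other strains) and RPS22B mRNA was low (22.8%). The values therefore do not show that these 2 strains share a deletion. The deletions rpl40a (-0.21) and rpl40b (-0.21) were low, while rpl40a/+ rpl40b/+ was at 0.30. In that strain RPL40A mRNA was at 96.9% of the median of the other strains, against its label, while its footprints were at 79.4%.

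**Figure D2:**
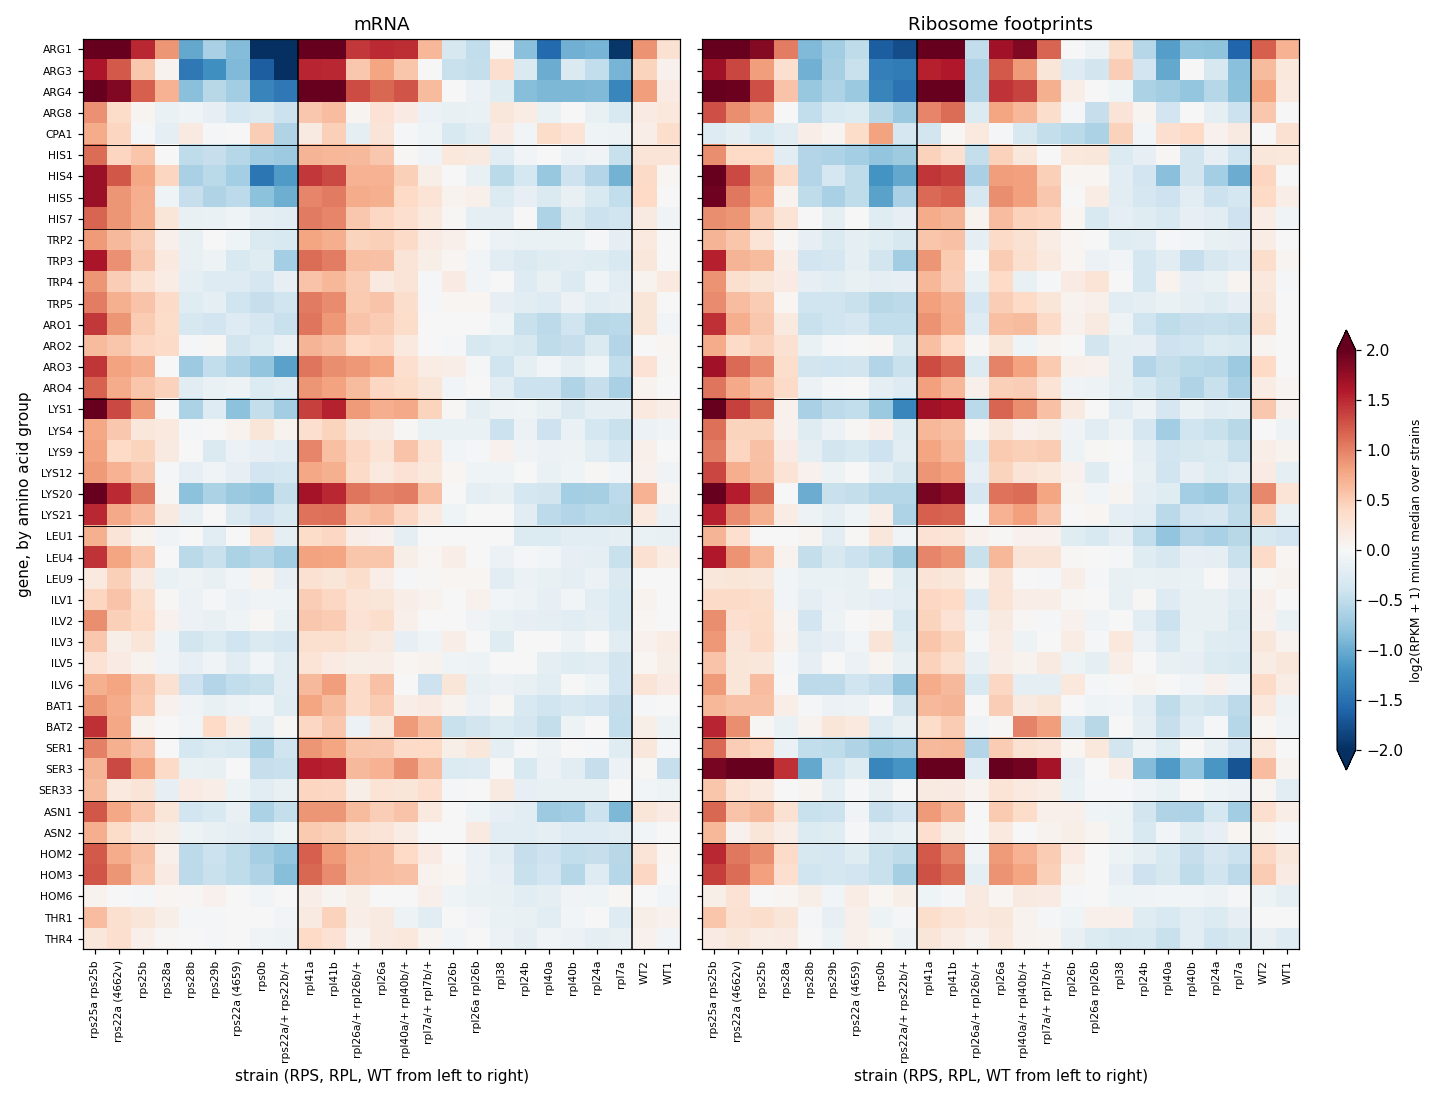
Log2(RPKM + 1) of each of 43 genes (rows, by amino acid group) minus its median over 25 strains (columns, RPS strains, then RPL strains, then wild type), with mRNA and footprints in separate panels and colours limited to 2 in either direction. The columns rps25a rps25b, rpl41a, rpl41b and rps22a (4662v) are high in nearly every row, and the ARG1 row holds the widest differences in both panels.

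As a group the arginine genes varied most, with a range of strain medians of 3.05 log2 units in mRNA. This did not hold for each gene, since ARG8 (1.35) and CPA1 (1.34) ranged less than the median of the 43 genes (1.49). ARG1, argininosuccinate synthetase, had mRNA levels of 38.9, 124 and 1535 RPKM (lowest, median and highest) in RPS strains, 49.9, 175 and 1085 in RPL strains, and 240 and 363 in wild type. The classes overlapped over nearly their whole range, with rps25a rps25b, rpl41a and rpl41b (1013 RPKM) highest and rps0b, rps22a/+ rps22b/+ (48.2 RPKM) and rpl7a lowest. The span from rps0b to rps25a rps25b was 39.5-fold, and the 45 reads of ARG1 in rps0b allow 28.4 to 52.0 RPKM (95% Poisson interval, which covers counting error only). ARG1 footprints spanned 30.8-fold, from 50.8 RPKM in rps22a/+ rps22b/+ to 1567 in rps25a rps25b. ARG4, argininosuccinate lyase, followed the same strains, with 51.0, 94.2 and 1086 RPKM of mRNA in RPS strains, 55.3, 133 and 659 in RPL strains, and 155 and 247 in wild type.

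ARG3, ornithine carbamoyltransferase, ran from 22.0 to 313.5 RPKM in mRNA (14.2-fold) and from 37.4 to 328 in footprints. ARG8, the acetylornithine aminotransferase of mitochondria, had the lowest wild-type level of the group (87.2 ± 2.26 RPKM in mRNA, SD, n = 2) and spanned 2.57-fold in mRNA and 4.24-fold in footprints. CPA1, the small subunit of the arginine-specific carbamoyl phosphate synthetase, carries an upstream reading frame whose peptide stalls ribosomes when arginine is plentiful. Its mRNA was highest in rps25a rps25b (594 RPKM) and lowest in rps22a/+ rps22b/+ (234 RPKM). Its footprints, in contrast, were highest in rps0b (313 RPKM), the strain that was lowest for ARG1 mRNA, and stood at 149 RPKM in rps25a rps25b. It was the gene of the 43 whose footprints were highest in rps0b.

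Among the histidine genes, HIS4, a trifunctional enzyme, had the widest range. Its mRNA was 127, 239 and 1162 RPKM (lowest, median and highest) in RPS strains, 180.5, 332 and 928.5 in RPL strains, and 360 and 453 in wild type. The lowest strain was rps0b and the highest rps25a rps25b, with both classes on either side of wild type. HIS4 and ARG4 have marker alleles in many SK1 strains, and both were expressed in all 25 strains, which does not show whether an allele is functional. HIS1, the enzyme of the first step, was the most abundant of the group in wild type (794 ± 3.08 RPKM of mRNA, SD, n = 2) and spanned 3.62-fold. HIS5, an aminotransferase, spanned 6.58-fold, and HIS7, which makes the imidazole ring, 3.49-fold.

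The aromatic genes spanned less than the arginine and histidine genes, with a range of strain medians of 1.50 log2 units in mRNA against 3.05 and 2.30. ARO3, one of the paired enzymes that start the pathway, spanned 5.65-fold in mRNA, from 151 RPKM in rps22a/+ rps22b/+ to 852 in rps25a rps25b, with 324 and 389 in wild type. ARO4, its tyrosine-sensitive paralog, was the more abundant copy in all 25 strains and spanned 3.57-fold. The ARO3 to ARO4 ratio in mRNA lay between 0.309 and 0.741. The mRNA of ARO1, the pentafunctional enzyme of the middle steps, spanned 3.89-fold, and that of TRP3, of the first step towards tryptophan, spanned 5.01-fold. TRP2 (2.24-fold), TRP4 (2.35-fold), ARO2 (2.43-fold) and TRP5 (2.82-fold), which encode the partner of Trp3, the next enzyme, chorismate synthase and tryptophan synthase, spanned less.

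In the lysine pathway, the first and the last enzyme varied most. LYS20, a homocitrate synthase, had 31.5, 40.3 and 397 RPKM of mRNA in RPS strains, 34.7, 53.5 and 181.5 in RPL strains, and 58.9 and 91.5 in wild type. LYS1, the saccharopine dehydrogenase of the last step, ran from 34.7 to 483 RPKM in mRNA and from 29.0 to 706 in footprints. For both genes rps25a rps25b stood far above every other strain, since the next highest mRNA levels were 181.5 RPKM for LYS20 (rpl41a) and 181 for LYS1 (rpl41b). LYS21, the second homocitrate synthase, spanned 4.37-fold, so that LYS20 was the more abundant copy in 13 strains, with ratios from 0.603 in rps28b to 2.36 in rps25a rps25b. LYS4, LYS9 and LYS12, enzymes of the middle steps, spanned 2.33-fold, 2.56-fold and 2.36-fold in mRNA. Paralogs such as LYS20 and LYS21 share long stretches, and how reads that match both were assigned is not given, so their separate levels are uncertain.

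The branched-chain genes had a narrower range of strain medians in mRNA (1.05 log2 units) than the aromatic (1.50) and lysine (1.58) genes, the other large groups. ILV5, the reductoisomerase shared by valine and isoleucine synthesis, was the most abundant of the 43 genes in wild type (1804 ± 74.1 RPKM in mRNA and 3153 ± 126 in footprints, SD, n = 2). Its mRNA was 1452, 1631 and 2090 RPKM in RPS strains, 1323, 1710 and 2055 in RPL strains, and 1751 and 1856 in wild type, a span of 1.58-fold. LEU4, the main isopropylmalate synthase, spanned 4.42-fold (273 to 1204 RPKM), while its paralog LEU9 spanned 1.71-fold (203 to 347 RPKM). The LEU4 to LEU9 ratio was above 1 in all strains and highest, at 4.23, in rps25a rps25b. BAT2, the cytosolic branched-chain aminotransferase, spanned 3.92-fold, and BAT1, its mitochondrial paralog, 2.58-fold. ILV6, the regulatory subunit of acetolactate synthase, spanned 2.69-fold and its catalytic partner ILV2 2.36-fold. LEU1, ILV3 and ILV1, which encode isopropylmalate isomerase, dihydroxyacid dehydratase and threonine deaminase, spanned 2.00-fold, 1.93-fold and 1.83-fold.

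SER3 and SER33 encode paralogous phosphoglycerate dehydrogenases of serine synthesis. Their sequences are close, and the same limit on separate levels holds. SER3 mRNA was 37.7, 52.3 and 132 RPKM in RPS strains, 37.7, 50.5 and 158 in RPL strains, and 37.7 and 53.3 in wild type, with rpl41a highest. Its footprints spanned 26.8-fold, from 4.93 RPKM in rpl7a (36 reads, 3.45 to 6.82 RPKM by counting error) to 132 in rpl41b. The footprint ratio of SER3 to SER33 lay below 1 in all but 6 strains and ranged from 0.0835 in rpl7a to 1.84 in rpl41b. SER33 mRNA spanned 1.84-fold and that of SER1, the next enzyme, 3.12-fold. ASN1, an asparagine synthetase, was the more abundant copy in mRNA in all strains and spanned 4.43-fold, against 1.97-fold for ASN2.

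In the threonine branch, HOM3, the aspartate kinase that opens it, spanned 4.37-fold in mRNA and HOM2, the next enzyme, 4.01-fold. HOM6, the homoserine dehydrogenase that follows, was the steadiest of the 43 genes. Its mRNA was 443, 463 and 488 RPKM in RPS strains, 398, 446 and 505 in RPL strains, and 441 and 457 in wild type. All groups overlapped within a span of 1.27-fold. THR1 and THR4, the kinase and the synthase that end the branch, spanned 1.84-fold and 1.51-fold.

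Set beside all genes, the amino acid genes were among the more variable. Of the 43, 15 (34.9%) spanned more than 4-fold in mRNA, against 7.15% of the 5102 genes tested. In footprints 16 (37.2%) did, against 5.23% of 4222. The median SD across strains was 0.44 (log2) for the 43 genes in either assay, and 0.22 for all genes. The gap between WT1 and WT2 had a median size of 0.14 in mRNA and 0.24 in footprints over the 43 genes. WT2 was the higher for 34 and 40 of them. Over all genes tested the median gap was 0.17 in mRNA and 0.16 in footprints. There WT2 was the higher for 3169 of 5102 genes in mRNA and 2782 of 4222 in footprints.

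No amino acid gene passed the test between the classes. Between RPS and RPL strains, none of the 43 genes passed limma's test in mRNA, where 9.68% of 5102 genes did (2.92% higher and 6.76% lower in RPS strains), in footprints, where 5.61% of 4222 did (1.21% higher and 4.41% lower), or in translational efficiency (footprint level over mRNA level of the same strain), where 1.12% of 4199 did (1% higher and 0.119% lower). A gene passed at a Benjamini-Hochberg adjusted p under 0.05 over all genes tested. At an unadjusted limma p under 0.05, 1, 2 and 6 of the 43 genes lay below the threshold. Of all genes tested, 1314 of 5102 in mRNA, 991 of 4222 in footprints and 554 of 4199 in efficiency did. The median log2 difference between RPS and RPL strains was -0.02 for the 43 genes and -0.02 for all genes in mRNA, 0.05 and -0.04 in footprints, and 0.02 and -0.01 in efficiency. Voom on the recovered reads also called 0 of the 43 in mRNA and in footprints.

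The smallest adjusted p in mRNA was that of the homoaconitase gene LYS4, which averaged 138 ± 27.5 RPKM in RPS strains and 111 ± 23.04 in RPL strains (SD, n = 9 and 14), a log2 difference of 0.31 ± 0.11 (SE, limma adjusted p = 0.0739). The other largest positive differences in mRNA were those of BAT2 (0.29), ARO4 (0.19), ARO2 (0.16) and THR1 (0.15). The most negative were those of ARG3 (-0.52), ARO3 (-0.29), HIS1 (-0.24), HIS5 (-0.21) and SER1 (-0.20). The intervals were wide where strains differed most. For ARG1 mRNA the difference was -0.14 with a 95% interval of -1.42 to 1.14, and for ARG4 -0.04 with -1.11 to 1.03. For HOM6 it was 0.05 with -0.04 to 0.14.

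In footprints, the isopropylmalate isomerase gene LEU1 differed most, at 172 ± 34.4 RPKM in RPS strains and 138 ± 33.8 in RPL strains (log2 0.33 ± 0.13 SE, limma adjusted p = 0.117). LYS4 (0.25), BAT2 (0.25), ARO4 (0.25) and ARO2 (0.23) came next, while ARG3 (-0.22), HIS1 (-0.21), ILV6 (-0.21), SER1 (-0.19) and TRP5 (-0.12) were the most negative. In efficiency the largest positive values were those of ARO3 (0.39), ARG3 (0.30), LYS12 (0.25), ILV3 (0.23) and LEU1 (0.21), and the most negative those of ILV6 (-0.14), ARO1 (-0.08), TRP5 (-0.07), LYS4 (-0.05) and ILV1 (-0.04). None of these passed, and limma's smallest adjusted p in efficiency was 0.110 (THR4, log2 0.16). The efficiency differences include rpl26a/+ rpl26b/+, whose mRNA and footprint libraries did not match. Its log2 efficiency was the lowest of all strains for ARO3 (-1.17), ARG3 (-1.16) and LYS12 (-0.89), but not for ILV3 or LEU1. Without the footprint and mRNA libraries labelled rps22a (4662v) and rpl26a/+ rpl26b/+, THR4 passed in efficiency (log2 0.19, limma adjusted p = 0.0459).

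No gene passed the test against wild type in either class. Limma called 0 of 5102 genes in mRNA and 0 of 4222 in footprints (0% each) for RPS strains or for RPL strains against wild type, and voom also called 0. At an unadjusted p under 0.05 limma had 519 genes in mRNA and 404 in footprints for RPS strains, and 137 and 109 for RPL strains. Of the 43 amino acid genes, 1 lay below that level, HOM6 footprints in RPS strains, with 569 ± 40.7 RPKM there and 485 ± 18.8 in wild type (log2 0.23 ± 0.09 SE, limma adjusted p = 0.474). ARG1 mRNA lay above both wild-type samples in 8 mutant strains and below both in 13, so its difference from wild type was -0.54 in RPS strains and -0.40 in RPL strains with 95% intervals of -2.89 to 1.80 and -2.67 to 1.87.

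The level of the amino acid genes was then set against the ribosomes on GCN4 itself. GCN4 footprints ran from 36.1 RPKM in rps22a/+ rps22b/+ to 367.9 in rps25a rps25b (10.2-fold, median 99.1), with 111.7 and 124.7 in wild type, while GCN4 mRNA stayed between 1413 and 1899 RPKM (1.34-fold). GCN4 mRNA passed limma's test between the classes (log2 -0.15, adjusted p = 0.0209), and its footprints did not (-0.39, adjusted p = 0.573). With 1 strain left out at a time, GCN4 mRNA passed in 24 of 25 fits. It did not without rps22a/+ rps22b/+ (limma adjusted p = 0.05615). For every gene, limma estimated the slope of its log2 level on the log2 level of GCN4 footprints over the 25 strains, with the class as a term. This comparison was chosen after the values had been seen.

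The mRNA of 41 of the 43 genes rose with GCN4 footprints, where 6.39% of the 5102 genes tested rose and 15.1% fell (21.5% in all). The median slope was 0.37 log2 units of mRNA per log2 unit of GCN4 footprints for the 43 genes and -0.03 for all genes. By group, the medians were 0.90 for arginine, 0.51 for histidine, 0.42 for aromatic, 0.41 for lysine, 0.39 for serine, 0.37 for asparagine, 0.23 for branched-chain and 0.15 for threonine genes. ARG1 had the steepest slope, at 1.39 ± 0.17 (SE), followed by ARG4 at 1.16 ± 0.14, ARG3 at 0.90 ± 0.11, LYS20 at 0.88 ± 0.11, HIS4 at 0.79 ± 0.10 and LYS1 at 0.77 ± 0.10, with limma adjusted p of 8.38e-06 for ARG1, ARG4, ARG3 and HIS4. At the low end of those that passed stood ILV5 (0.13), LEU9 (0.11) and THR4 (0.14). HOM6 (0.03, limma adjusted p = 0.373) and CPA1 (0.14, adjusted p = 0.0782) did not pass.

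**Figure D3:**
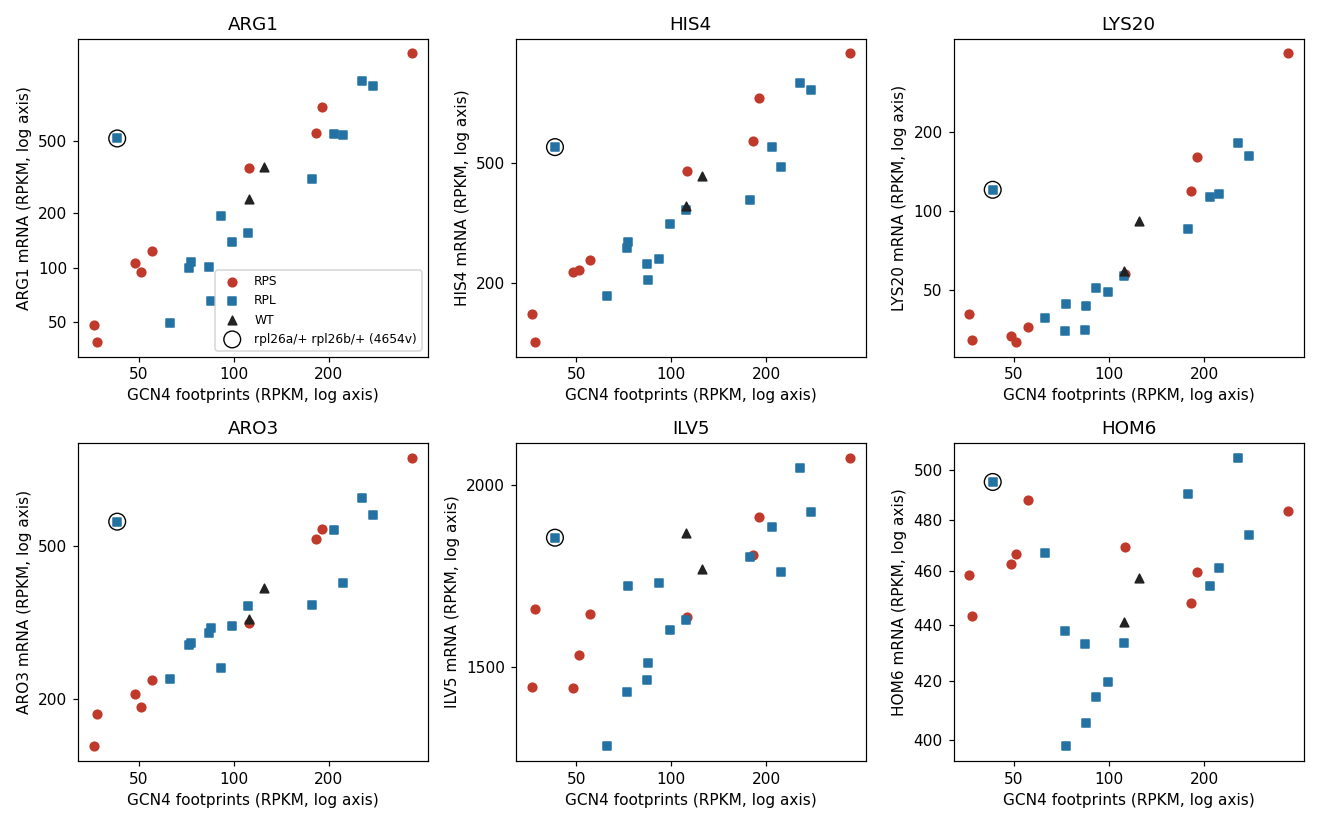
mRNA level of 6 genes (y axis, RPKM, log axis) against GCN4 footprints (x axis, RPKM, log axis) in 25 strains, with RPS, RPL and wild-type strains marked by colour and shape. ARG1, HIS4, LYS20 and ARO3 climb with GCN4 footprints, ILV5 does so within 1323 to 2090 RPKM, HOM6 stays between 398 and 505 RPKM, and the ringed strain labelled rpl26a/+ rpl26b/+ (4654v) lies above the other strains of similar GCN4 footprints.

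This relation crossed libraries, since GCN4 was read in footprints and the 43 genes in mRNA of the same strain. The strain labelled rpl26a/+ rpl26b/+ lay apart from it, with GCN4 footprints of 42.8 RPKM beside an ARG1 mRNA level of 519.5 RPKM. Without it and the strain labelled rps22a (4662v), 41 genes still passed and the slope of ARG1 was 1.64. No count over all genes is given for that setting, so the 41 has no background share beside it. Without rpl26a/+ rpl26b/+ alone, the call of all genes, rising and falling together, was 1330, against 1095 with every strain. Leaving out the strains farthest from the median in GCN4 footprints, rps25a rps25b and rpl41b, left 37 of the 43 genes rising. LYS4, LEU1, THR1 and LEU9 no longer passed, and the call of all genes fell to 558. That total is not split into rising and falling genes, so it gives no rising share to set beside the 37. The split of all calls depended on scaling, with 326 genes rising and 769 falling under RPKM and 442 and 409 under median-of-ratios scaling, where 42 of the 43 rose, CPA1 included.

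**Figure D4:**
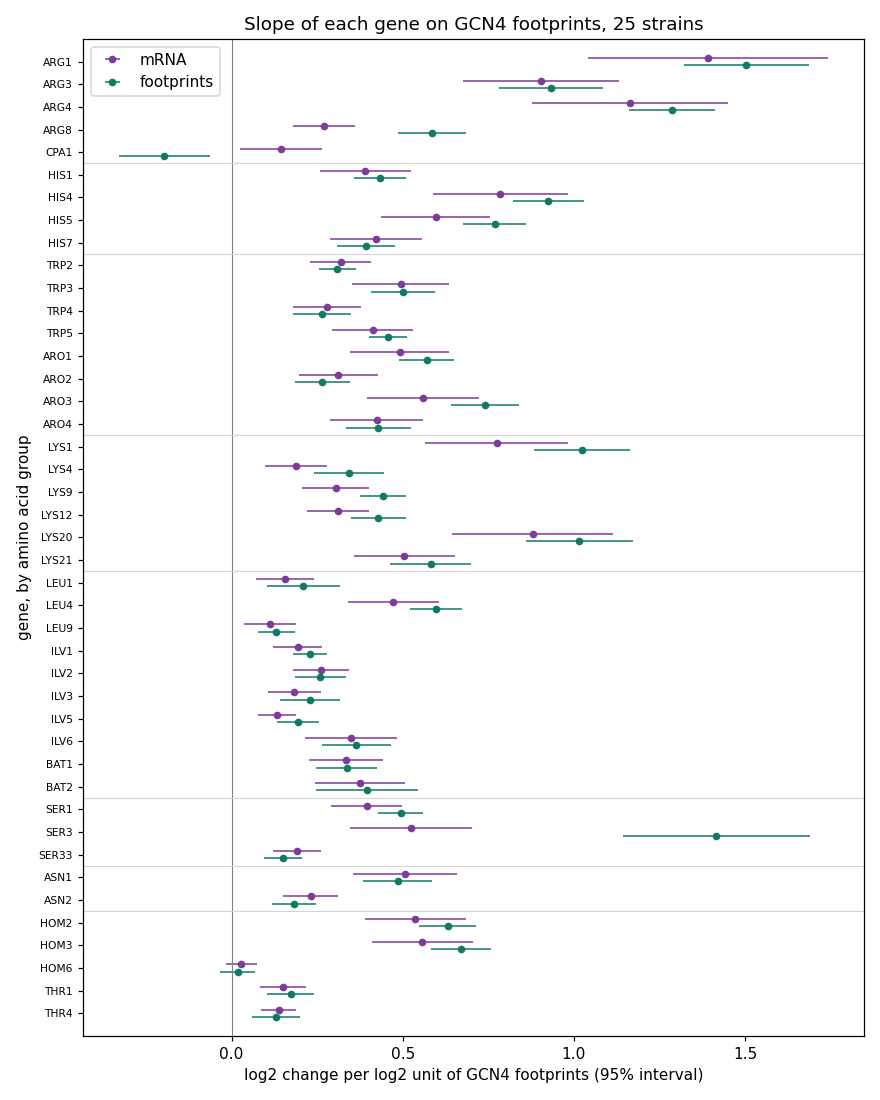
Slope of each of 43 genes on GCN4 footprints over 25 strains (x axis, log2 change per log2 unit of GCN4 footprints, with 95% intervals), for mRNA and footprints, by amino acid group (y axis). Slopes run from 0.03 (HOM6) to 1.39 (ARG1) in mRNA and from -0.20 (CPA1) to 1.50 (ARG1) in footprints.

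In footprints 41 of the 43 genes rose and CPA1 fell, where 10.8% of 4221 genes rose and 38% fell (48.8% in all). Here GCN4 and the other genes were read from the same footprint library, and depth and composition of that library enter both sides. The median slope was 0.43 for the 43 genes and -0.06 for all. ARG1 (1.50 ± 0.09 SE), SER3 (1.42 ± 0.13), ARG4 (1.29 ± 0.06), LYS1 (1.02 ± 0.07) and LYS20 (1.02 ± 0.08) were steepest. CPA1 had a slope of -0.20 ± 0.06 (limma adjusted p = 0.0143), but under median-of-ratios scaling it was -0.13 and did not pass (adjusted p = 0.107). HOM6 was at 0.02 (limma adjusted p = 0.568). The split of all calls was 454 rising and 1604 falling under RPKM, and 761 and 774 under median-of-ratios scaling.

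Translational efficiency followed GCN4 footprints in 6 of the 43 genes, a larger share than among all genes. Over the 24 strains without the one labelled rpl26a/+ rpl26b/+, the median efficiency of a gene lay between 0.411 and 1.75, its highest to lowest ratio had a median of 1.47, and 5 genes spanned more than 2-fold. In rpl26a/+ rpl26b/+, whose libraries did not match, 31 of the 43 genes had their lowest efficiency (median ratio 0.648, against 0.953 to 1.15 in the other strains). Neither the 5 nor the 31 has a count over all genes to set beside it. The slope of efficiency on GCN4 footprints passed for 6 of the 43 genes, where 0.643% of 4198 genes rose and 0.834% fell (1.48% in all). GCN4 footprints and the efficiencies again shared the footprint library. The median slope was 0.04 for the 43 genes and -0.03 for all.

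SER3 had the largest rise in efficiency, with a slope of 0.89 ± 0.09 (SE, limma adjusted p = 2.9e-07). Its footprint to mRNA ratio was 0.102 in rpl7a, 0.184 in rps0b and 0.167 in rpl40a, and it reached 1.05 in rpl26a, 0.926 in rps25b and 0.864 in rps25a rps25b, with 0.522 and 0.546 in wild type. ARG8 rose with a slope of 0.32 ± 0.04 (limma adjusted p = 4.1e-05), with ratios between 0.384 (rps28b) and 0.842 (rps25b). LYS1 (0.25), LYS4 (0.16) and LYS9 (0.14) also rose, with limma adjusted p of 0.0426, 0.0184 and 0.0464. Without the strains labelled rps22a (4662v) and rpl26a/+ rpl26b/+, LYS4 passed again and LYS1 (0.17) and LYS9 (0.11) did not. With 1 strain left out at a time, LYS1 passed in 9 and LYS9 in 6 of 25 fits. LYS4 passed in 24 of them and did not without rps25a rps25b (limma adjusted p = 0.0789), nor without the double heterozygotes.

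CPA1 was the gene whose efficiency fell, with a slope of -0.34 ± 0.04 (SE, limma adjusted p = 7.75e-07). Its ratio was 0.251 in rps25a rps25b, 0.328 in rps22a (4662v) and 0.346 in rpl41a, against 0.623 in rps0b, 0.651 in rps22a (4659) and 0.615 in rpl7a, with 0.487 and 0.462 in wild type. The 5 lowest ratios were in rps25a rps25b, rps22a (4662v), rpl41a, rpl41b and rpl26a rpl26b, of which rpl26a rpl26b had the median level of GCN4 footprints (99.1 RPKM). CPA1, SER3 and ARG8 passed in all 25 fits that left out 1 strain.

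**Figure D5:**
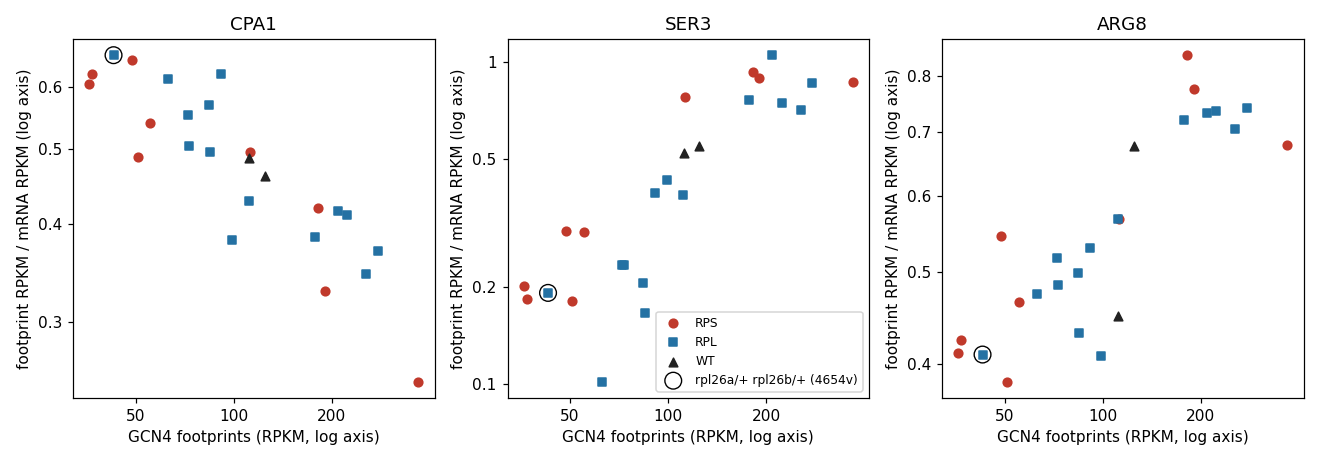
Translational efficiency (footprint RPKM over mRNA RPKM of the same strain, log axis) of CPA1, SER3 and ARG8 against GCN4 footprints (RPKM, log axis) in 25 strains, with RPS, RPL and wild-type strains marked and the strain labelled rpl26a/+ rpl26b/+ (4654v) ringed. CPA1 drops to 0.251 in rps25a rps25b, at 367.9 RPKM of GCN4 footprints, while SER3 climbs to 1.05 in rpl26a and ARG8 to 0.842 in rps25b.

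Other enzymes of the same pathways, taken from a list of 28 genes outside the 44, followed in part. Of the 26 tested in mRNA, 15 rose with GCN4 footprints and 1 fell, and their median slope was 0.13. Among those that rose, ARG5,6, which encodes enzymes of ornithine synthesis, had a slope of 0.67 ± 0.08 (SE, limma adjusted p = 8.38e-06) and the mitochondrial ornithine carrier gene ORT1 a slope of 0.60 ± 0.08 (limma adjusted p = 2.8e-05). ARO8 (0.35), AAT2 (0.30), GDH1 (0.27), GLN1 (0.26), ARG2 (0.26), GLT1 (0.24), OAC1 (0.19), HIS2 (0.18), GLY1 (0.18), ALT1 (0.15), PRO2 (0.12) and SER2 (0.12) rose less. The chorismate mutase gene ARO7, which leads to phenylalanine and tyrosine, fell (-0.14). In footprints 15 of 25 rose and 4 fell (ARO7, PRO1, LEU3 and HIS6).

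Slopes on GCN4 footprints were also taken for 9 regulators, GCN4 included. The cyclin gene PCL5 promotes the breakdown of Gcn4 protein and is itself a Gcn4 target. PCL5 rose in mRNA with a slope of 0.71 ± 0.09 (SE, limma adjusted p = 8.38e-06), and the arginine regulator ARG80 with a slope of 0.23. GCN20, which helps Gcn2 sense uncharged tRNA, fell by 0.09 log2 units per log2 unit of GCN4 footprints, and the arginine regulator ARG81 by 0.12. PCL5 mRNA was highest in rpl41b (411.5 RPKM) and rps25a rps25b (401 RPKM) and lowest, at 61.7 RPKM, in rps22a/+ rps22b/+, with 144 and 234 RPKM in wild type. In footprints PCL5 and ARG80 rose and GCN20, GCN1 and MCM1 fell, of 5 tested. Between RPS and RPL strains, the serine hydroxymethyltransferase gene SHM2 was lower in mRNA (log2 -0.32, limma adjusted p = 0.0267) and the efficiency of the glutamine synthetase gene GLN1 was higher (0.19, limma adjusted p = 0.0394), and no other of these genes passed apart from GCN4 mRNA. With 1 strain left out at a time, GLN1 passed in 10 of 25 fits (adjusted p up to 0.0859) and SHM2 in 21. Under median-of-ratios scaling neither passed (limma adjusted p = 0.0573 for GLN1 and 0.0542 for SHM2).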

How the data were processed

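mRNA and ribosome footprints were measured in 25 strains. For each assay the authors deposited a table headed RPKM whose values behaved as a signal, in which 1 read of a gene was worth a library constant times the coding length less 60 nt. Software listed by the submitters' processing notes was bcl2fastq 2.17, Bowtie2 and CASAVA. No source used here gives the genome build, the use of strand or the handling of reads that match several genes. Whole reads were recovered (tolerance 0.03 reads) for 87.6% of 5812 reading frames with an annotated length and signal, against 23 of 5803 at shuffled lengths. Lengths of 1084 more were inferred from the steps of their values, 154 were left out, and the unnamed total line of each table was dropped. RPKM was recomputed from these reads, a departure from the planned use of deposited RPKM.

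A gene was tested where its mean was 10 RPKM or more across the 25 strains. The test was limma 3.58.1 (R 4.3.3; moderated with a trend, two-sided) on log2(RPKM + 1), with 3 classes in 1 fit and Benjamini-Hochberg adjustment over all genes tested. All 43 genes with values passed this minimum in both assays. On this scale changes of low genes are understated. Efficiency subtracted a strain's mRNA value from its footprint value, which pairs the 2 libraries by the strain number in the titles. Of 25 strains, 23 matched their own partner best. Slopes on GCN4 footprints were added after the values were seen. The scripts were tested on simulated data. The members and lists were chosen with earlier results of these data known. Genes named were those past a test, the 5 largest differences each way, the widest ranges, the highest and lowest wild-type levels by group, paralog pairs, possible strain markers, CPA1 and GCN4. Of the other pathway enzymes that passed a test, 1 is not reported here by name.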

Additional observations from a re-analysis of the deposited data

Results flagged for a closer look

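Among the 9 RPS strains, 3 of 134 sets of values held a strain that stood apart from the rest by Dixon's test, which chance alone would do in about 1 of 20 sets. TRP4 footprints in rps25a rps25b were 154.3 RPKM, with the next strain at 104.0. The efficiency of ARO3 in rps22a/+ rps22b/+ was 1.514, with the next at 1.259. The efficiency of SER1 in rps25a rps25b was 1.722, with the next at 1.461.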

How the results depend on the processing

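Counts are genes past limma's adjusted p under 0.05, and the cause of each shift was not tested. The edgeR and DESeq2 fits planned on the recovered reads were not run, and voom was run on those reads in their place. Between RPS and RPL strains, leaving out 1 strain gave 333 to 874 calls in mRNA (494 with all; 874 without rps25a rps25b), 57 to 608 in footprints (237 with all; 57 without rps0b) and 11 to 85 in efficiency (47 with all; 11 without rps22a/+ rps22b/+), with 0 to 1 of the 43 genes in mRNA (LYS4, without rpl41a or rpl41b), 0 in footprints and 0 to 1 in efficiency (without rpl40a/+ rpl40b/+). The footprint count moved by over 1.5 times without every strain except rpl41b, rpl26a, rpl40a/+ rpl40b/+, rpl7a/+ rpl7b/+, rps22a (4662v), rps25b and the wild-type samples, and the efficiency count without every strain except rpl41b, rpl38, rpl41a, rpl26a, rpl7a/+ rpl7b/+, rps25a rps25b and the wild-type samples. Median-of-ratios scaling gave 15 calls in efficiency. Without the double heterozygotes there were 475 calls in footprints (1 of the 43, LEU1) and 149 in efficiency (3 of the 43, THR4, ARO3 and LEU1). Without rps22a (4662v) and rpl26a/+ rpl26b/+ there were 423 in footprints and 1 of the 43 in efficiency (THR4). Without these and rps25a rps25b there were 947 in mRNA, 924 in footprints (2 of the 43, HIS1 and SER1, both lower in RPS strains) and 1 of the 43 in efficiency. Without the pairing of libraries by strain (no replicate block), 3 genes were called in efficiency.

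Against wild type, RPL mRNA gave 1 call with a pseudocount of 0.1, 3 without the minimum level and 0 to 3 with 1 strain left out (3 without WT2). RPS mRNA gave 1 without the minimum and 0 to 1 with 1 strain left out, and 1 without the 3 strains above. RPS footprints gave 0 to 1 with 1 strain left out and 11 without those 3 strains. None of these calls was among the 43.

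The slopes on GCN4 footprints gave 775 to 1330 calls in mRNA (39 to 42 of the 43), 1854 to 2101 in footprints (42 of the 43) and 26 to 108 in efficiency (3 to 6 of the 43; 26 without rpl41b, 108 without rpl26a) with 1 strain left out. The efficiency count moved by over 1.5 times without rpl41b, rpl41a, rpl26a, rpl40a/+ rpl40b/+, rpl26a/+ rpl26b/+, rpl24b or rps25a rps25b. Without the 2 strains farthest in GCN4 footprints there were 558 in mRNA and 17 in efficiency (3 of the 43). A minimum of 50 RPKM gave 1078 in footprints. In efficiency there were 23 calls (3 of the 43) without the double heterozygotes, 23 without rps22a (4662v) and rpl26a/+ rpl26b/+, and 14 (3 of the 43) without these and rps25a rps25b. The span of the strain medians was 1.30 in mRNA and 1.46 in footprints, and 1.42 and 1.66 under median-of-ratios scaling. Rates for single genes in the thinnest mRNA libraries rest on as few as 29 reads.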
